A study of Mus musculus with 2208 samples.

Results

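The cytosolic ribosomal protein genes were taken from the deposited expression table by their symbols: Rpl or Rps followed by a digit, with Rplp0, Rplp1, Rplp2 and Rpsa. Symbols of pseudogenes marked -ps (6 genes) and the Rps6k kinases (10 genes) were left out, which gave 87 genes of 23951 in the table. They comprised 43 proteins of the large subunit, 31 of the small subunit, 3 proteins of the P stalk and 9 paralogs or retrogene copies. The symbol rule also took in Rps19bp1, which encodes a protein that binds RPS19 and is not itself a ribosomal protein.

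The cytosolic ribosome is built from ribosomal RNA and a fixed set of proteins, most of which occur once in each particle. Cells therefore tend to make the messages of these proteins in step, and many of them begin with a 5' terminal oligopyrimidine tract (TOP), a C at the cap followed by further pyrimidines, through which mTOR signalling and LARP1 set their translation and stability. Microglia, the resident macrophages of the brain, raise protein synthesis when they divide or become phagocytic.

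The cells came from the hippocampus of mice of the CK and CKp25 strains. In this model excitatory forebrain neurons, through the Camk2a promoter, can be induced to make p25, a fragment of p35 that activates Cdk5, and neurodegeneration follows. The CK littermates are the controls and are known to carry the driver without the p25 transgene; microglia themselves are not made to express p25. The mice were 3 months old at 0 weeks (before induction) and were sampled 1, 2 and 6 weeks after induction, at 3 months and 1 week, 3 months and 2 weeks, and 4 months and 2 weeks. There were 8 groups of 3 mice, except that CKp25 at 6 weeks had 4, which made 25 mice in all. Cells carrying CD11b and CD45 were sorted singly into wells and made into Smart-seq2 libraries, and values were deposited as FPKM, a measure of fragments scaled to transcript length and to the mapped fragments of the cell.

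The labels listed 2208 wells, and the 2028 in which 1000 genes or more reached an FPKM of 1 were kept. The submitters state a median of 251353 mapped reads per cell over 2183 libraries, which is 25 fewer than the wells listed, as many as there are mice. Whether each listed well held a single cell is therefore not certain; without the first well of each mouse 36 genes passed at 2 weeks and 75 at 6 weeks, against 38 and 73 below. FPKM keep no read counts, so the depth behind a single value was unknown. Between 41 and 96 cells were kept per mouse, with group totals of 182 to 284. The sorted cells carried genes used as markers of microglia. Csf1r was found in 100% of kept cells, Tmem119 in 99.4%, P2ry12 in 97.8%, Sall1 in 81.8% and Aif1 in 79.8%. In CKp25 mouse 3 at 6 weeks only 52 of 89 wells were kept. In 3 mice (CK mouse 1 at 1 week, CK mouse 1 at 6 weeks and CKp25 mouse 1 at 6 weeks) the ribosomal RNA gene Rn45s took at most 1.33% of summed FPKM, against at least 3.09% in the other mice. The wells of CKp25 mouse 2 at 6 weeks include 7 whose names repeat a well position, and these are the 7 positions that mouse 3 lacks, so whether they belong to mouse 2 or mouse 3 is uncertain; they were kept as labelled, and without them 73 genes passed at 6 weeks, as with them. Week, age and any day of processing coincide in this design and cannot be told apart.

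Sequence around the annotated start was available from RefSeq (build GRCm38.p6) for 66 of the 87 genes, and a TOP was searched on the transcript's strand as a C at the annotated start followed by at least 4 bases that are each C or T. Of the 66 genes, 14 (21.2%) had such a start, against 3.01% of 27025 genes of all kinds in the same set. The windows below run from 30 bases before the start to 25 bases from it. They are shown for 4 genes with a TOP that were higher in CKp25 mice at 6 weeks, for 1 higher gene without one at the annotated starts (Rpl10a) and for 2 genes that did not pass the test (Rpl7l1 and Rps19bp1). Capitals mark the unbroken run of C and T that covers the start; windows without capitals have no such start. Positions are chr2:39005107-39005161 on the minus strand for Rpl35, chr2:180257349-180257403 on the plus strand for Rps21, chr17:33955641-33955695 on the minus strand for Rps18 and chr4:86857343-86857397 on the minus strand for Rps6. They are chr17:28328535-28328589 on the plus strand for Rpl10a, chr17:46782632-46782686 on the minus strand for Rpl7l1 and chr15:80264282-80264336 on the minus strand for Rps19bp1.
Rpl35: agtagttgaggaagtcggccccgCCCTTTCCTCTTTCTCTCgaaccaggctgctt
Rps21: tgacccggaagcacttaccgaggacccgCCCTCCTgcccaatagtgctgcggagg
Rps18: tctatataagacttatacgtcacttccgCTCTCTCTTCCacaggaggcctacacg
Rps6: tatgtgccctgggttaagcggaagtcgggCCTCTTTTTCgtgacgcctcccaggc
Rpl10a: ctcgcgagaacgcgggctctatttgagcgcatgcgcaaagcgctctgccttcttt
Rpl7l1: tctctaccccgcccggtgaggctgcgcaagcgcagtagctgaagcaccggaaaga
Rps19bp1: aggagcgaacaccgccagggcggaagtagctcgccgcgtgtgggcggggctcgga

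The run covered 18 bases in Rpl35, 11 in Rps18, 10 in Rps6 and 7 in Rps21. The Rpl10a window holds a run of C and T at its far end, well downstream of the annotated start. A transcript that began there instead would be missed by this search. A match is a description of the letters at the annotated start and does not show where transcription begins in these cells.

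The ribosomal protein genes were among the most abundant messages. Averaged over mice, 72 of the 87 genes were at FPKM of 100 or more, 31 at 500 or more and 4 at 1000 or more. The highest were Rplp1, an acidic P stalk protein that recruits elongation factors, at 1547, Rps4x at 1185, Rpl10, which joins the large subunit late in its maturation, at 1101, and Rpl41, the shortest ribosomal protein, at 1067. FPKM is per length, but fragments shared with copies of a gene make this order approximate. Of the 87 genes, 73 were found in at least 50% of kept cells and 9 in at least 90%.

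At the low end stood paralogs. Rpl10l, a germ line copy of Rpl10, was found in 4 cells, Rpl3l, a muscle copy of Rpl3, in 3 cells, and Rpl39l, a copy of Rpl39 known from testis, in 22 cells. Rps4l was at 11.95 and Rps15a at 13.3, although Rps15a was found in 63.9% of cells. Rpl30 and Rpl26, both core proteins of the large subunit, were listed above FPKM of 1 in only 11.98% and 12.7% of cells. Ribosomal protein genes have many processed pseudogenes, and the sources used here do not say how fragments shared with such copies were assigned, so the level of any single member is uncertain; Rps27 and its retrogene Rps27rt are the clearest pair. The 3 rare paralogs did not reach the filter for testing (an FPKM of 1 reached in 10% of the cells or more, in 3 mice or more), and the other 84 did, all of them in CK mice alone as well.

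The 87 genes were first taken as a share of the FPKM summed over all genes of a cell. The mean share of CKp25 mice was higher at each later time after induction, while CK mice stayed between 5.47% and 7.89%. Because the share sums over the members, it is given as a description with no test. At 0 weeks the share was 7.18%, 5.69% and 5.90% in the 3 CK mice and 6.56%, 4.92% and 6.30% in the 3 CKp25 mice. These groups overlapped. At 1 week it was 7.59%, 6.88% and 5.63% in CK mice and 8.68%, 9.25% and 8.399% in CKp25 mice. At 2 weeks it was 7.59%, 7.89% and 5.47% in CK mice and 10.96%, 9.64% and 11.05% in CKp25 mice. At 6 weeks it was 5.71%, 5.96% and 6.92% in CK mice and 16.1%, 13.1%, 10.1% and 13.1% in CKp25 mice. At 1, 2 and 6 weeks every CKp25 mouse lay above every CK mouse of that week. The CKp25 mice of 2 and 6 weeks overlapped, since mouse 3 at 6 weeks (10.1%) lay below mice 1 and 3 at 2 weeks (10.96% and 11.05%). The ratio of group means was 0.947 before induction and 1.31, 1.51 and 2.12 at the later times in order.

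**Figure D1:**
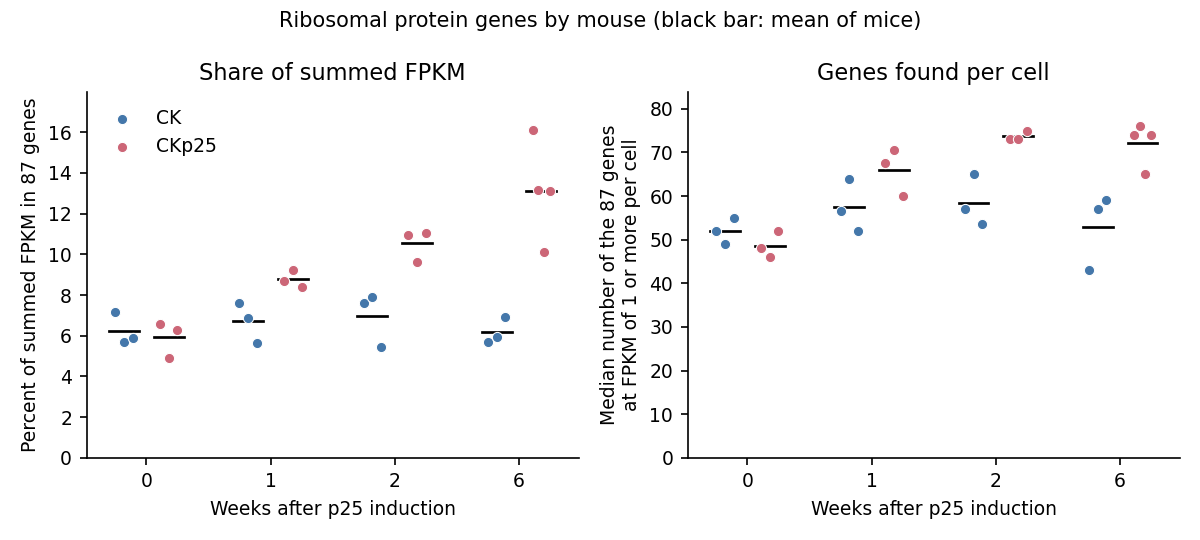
Left, percent of a cell's summed FPKM in the 87 ribosomal protein genes, averaged over the cells of each mouse; right, median number of the 87 genes at FPKM of 1 or more per cell. Each point is a mouse (blue CK, red CKp25), black bars are means of mice, and the x axis gives weeks after induction; the CKp25 share lies between 10.1% and 16.1% at 6 weeks, above all CK mice.

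The number of the 87 genes found per cell moved the same way. Mouse medians averaged 52 genes in CK and 48.7 in CKp25 mice at 0 weeks and 57.5 and 66 at 1 week. They averaged 58.5 and 73.7 at 2 weeks, then 53 and 72.25 at 6 weeks. The groups did not overlap at 2 and 6 weeks and overlapped at 1 week. All genes found per cell did not separate the genotypes: the medians averaged 2113 in CK mice and 2187 in CKp25 mice at 6 weeks, and 2582 and 2818.5 at 2 weeks. Leaving Rn45s and small RNA genes out of the sum gave shares of 7.07% in CK and 14.7% in CKp25 mice at 6 weeks, a ratio of 2.08.

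The difference was present at the low as well as the high end of the cells of a mouse. At 6 weeks the cell at the lower decile of its mouse had a share of 3.53% ± 0.48 (SD, n = 3) in CK and 7.96% ± 1.93 (SD, n = 4) in CKp25 mice, and the cell at the upper decile had 9.76% ± 0.83 (SD, n = 3) and 18.2% ± 3.11 (SD, n = 4). The 95th percentile of all CK cells at 0 weeks was 11.4%. Above that level lay 80.5%, 70.2%, 34.6% and 71.6% of the cells of the 4 CKp25 mice at 6 weeks, and 4.55%, 2.13% and 6.59% of the cells of the 3 CK mice. Mouse 3, the lowest CKp25 mouse, had the lowest percent of wells kept (58.4%) and the lowest median of genes per cell in its group (1830). CK mouse 1 at 6 weeks had the lowest median of genes per cell of all 25 mice (1537.5). It also had the lowest median of summed FPKM (302537) and the lowest mean of log2(FPKM + 1) over the ribosomal protein genes tested below (4.44). The part of this mouse's depth in the 6-week difference was not tested.

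Each gene was then tested as a mean of log2(FPKM + 1) over the cells of each mouse, with the mouse as the replicate, by limma over 9435 genes with Benjamini-Hochberg adjustment and a threshold of 0.05. The p-values measure the spread between these mice. Because many cells are listed at 0 for a gene, a difference on this scale combines the share of cells with the gene and its level in them, and it is not the log2 ratio of mean FPKM; for the genes past the threshold both are given below as values or ranges. A mean per mouse also does not tell a higher level in each cell from a different mix of cells.

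Before induction no ribosomal protein gene differed between the genotypes in limma (0 of 84; 0 at an unadjusted p under 0.05; background 0% of 9435 genes past the adjusted threshold). The median difference, CKp25 minus CK, was -0.13, against 0.03 over all tested genes, and 28 of 84 were above 0. On the same scale, 1 gene, Rpl7l1, had every CKp25 mouse above every CK mouse (background 4.88%) and 2 genes, Rpl23a and Rps2, had every CKp25 mouse below (background 2.64%).

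At 1 week after induction the median difference was 0.65, against 0.06 over all genes, and 78 of 84 were above 0, but 1 gene passed the test in the higher direction (background 3.9%) and 0 in the lower direction (background 0.392%); 16 had an unadjusted p under 0.05. In 16 genes every CKp25 mouse lay above every CK mouse (background 12.7%). The gene past the threshold was Rps2, a small subunit protein near the entry of the message channel. Its mean FPKM was 76, 390.1 and 283 in CK mice and 685, 674 and 655 in CKp25 mice. The groups did not overlap, and CK mouse 1, one of the 3 mice with little Rn45s, stood lowest. The difference was 2.75 ± 0.80 (SE, adjusted p = 0.0424 in limma), and it was 1.499 without that mouse (adjusted p = 0.347, within a range of 0.000989 to 0.347 over all alternatives). The Rps2 call was lost in 18 of the 25 fits that left out a mouse and in 6 other settings, among them log2(FPKM + 0.1) and rescaled FPKM (adjusted p = 0.0991 and 0.0840). Rpl13 was also low in that mouse, at 171 against 699 and 403 in the other CK mice; the part of these libraries in the result was not tested beyond leaving them out.

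In the lower direction at 1 week Rpl7l1, a nucleolar relative of Rpl7, had a difference of -0.24 ± 0.39 (SE, adjusted p = 0.812 in limma), and Rps29, a zinc finger protein of the small subunit, had -0.40 ± 0.67 (SE, adjusted p = 0.818 in limma). For Rpl7l1 the mice overlapped, at 59.1, 38 and 33 in CK and 48.2, 21.6 and 29.5 in CKp25. For Rps29 they overlapped at 1606, 969 and 809 in CK and 1002, 935 and 849.6 in CKp25.

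At 1 week the CKp25 samples also held many cells in cycle: Top2a or Mki67 was found in 29.6% ± 3.90 (SD, n = 3) of CKp25 and 5.38% ± 4.24 (SD, n = 3) of CK cells. In the 3 CKp25 mice the ribosomal protein share was 10.2%, 9.94% and 9.95% in cells with either gene and 8.09%, 8.89% and 7.83% in cells without them. Cells with either gene also had more genes in total, with medians of 3149, 3658 and 2940 against 2269, 2633 and 1881. Without them the group share was 8.27% ± 0.55 (SD, n = 3) in CKp25 mice, against 6.69% ± 0.99 (SD, n = 3) in CK mice. Genes were filtered anew on the remaining cells for this fit. In limma 0 ribosomal protein genes then passed, while 8 of all the genes tested passed as higher. The median difference of the 84 genes was then 0.30, against -0.04 over all genes, and that of Rps2 was 2.42 (adjusted p = 0.267). At 2 weeks CKp25 mice 1 and 2 also had at least 10 cells with Top2a or Mki67. Their share was 11.2% in such cells and 10.9% in the others in mouse 1, and 8.85% and 9.78% in mouse 2.

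At 2 weeks 38 of the 84 genes were higher in CKp25 mice (background 6.14%) and 0 lower (background 2.24%). They were 20 genes of the large subunit, 17 of the small subunit and Rplp0 of the stalk; 0 of the 6 tested paralogs passed. The median difference over the 84 genes was 1.61, against -0.00 over all genes, and in 68 genes every CKp25 mouse lay above every CK mouse (background 12.9%), among them all 38. The 38 genes had differences from 1.202 to 2.98 and ratios of mean FPKM from 1.34 to 2.34. The 2-week count depends on the scale: with log2 of the mean FPKM over cells in place of the mean of logs, 2 genes passed, beside 187 of all 9435 genes, and the median was 0.63 against -0.35 over all genes. It also rests on single mice, with 9 genes past the threshold without CK mouse 3 of that week, 13 without CKp25 mouse 3, 20 without CK mouse 1, 23 without CKp25 mouse 1 and 54 without CK mouse 2.

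Rpsa, which is both a small subunit protein and the laminin receptor precursor, had the smallest p at 2 weeks. Of the 6 genes described here for that time, Rpl10a alone also passed with log2 of the mean FPKM (adjusted p = 0.0298 in limma), and the other adjusted p ran from 0.0660 (Rpsa) to 0.194 (Rps18). The mean FPKM of Rpsa was 237, 347 and 156 in CK mice and 461, 407 and 602 in CKp25 mice. All 3 CKp25 mice were above the highest CK mouse, with a ratio of means of 1.99 and a difference of 2.69 ± 0.50 (SE, adjusted p = 0.000156 in limma). Rpl36a, a large subunit protein near the exit site of transfer RNA, followed at 111, 240.0 and 61.7 in CK and 242, 261 and 326 in CKp25 mice. Here the highest CK mouse almost reached the lowest CKp25 mouse; the difference was 2.79 ± 0.54 (SE, adjusted p = 0.000314 in limma).

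Rps18, a protein of the small subunit head, was at 433, 619 and 270.2 in CK mice and 801, 775 and 827 in CKp25 mice at 2 weeks, without overlap (difference 2.77 ± 0.57 SE). Rpl10a was at 323, 417 and 238 against 645, 574 and 722 (2.31 ± 0.48 SE). Rpl12, a large subunit protein at the base of the stalk, was at 597, 509.7 and 313 against 904, 853 and 853 (2.53 ± 0.56 SE). Rpl35, near the exit of the peptide tunnel, was at 372, 412 and 304 against 725, 672 and 758 (2.53 ± 0.57 SE). In each of these genes the lowest CK mouse was mouse 3 and no CK mouse reached a CKp25 mouse. In the lower direction, Rpl7l1 (32.7, 40.5 and 30.3 in CK, 21.1, 21.2 and 24.1 in CKp25) and Rps4l (24.2, 15.7 and 16.2 in CK, 5.71, 16.1 and 9.67 in CKp25) did not pass, with differences of -0.39 ± 0.39 and -0.11 ± 0.23 (SE). All 3 CKp25 mice were below all CK mice in the mean FPKM of Rpl7l1 but not in its mean of logs, and Rps4l overlapped on both scales.

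At 6 weeks 73 of the 84 genes were higher in CKp25 mice (background 4.21%) and 0 lower (background 1.54%). They were 38 of 43 genes of the large subunit, 28 of 31 of the small subunit, all 3 of the P stalk and 4 of 6 tested paralogs. The median difference was 2.31, against -0.04 over all genes. In 60 genes every CKp25 mouse lay above every CK mouse (background 6.22%), among them 57 of the 73. Among the 73 the ratio of mean FPKM ran from 1.94 to 3.90 with a median of 2.65. The 38 genes of week 2 were all among the 73, and 35 passed at 6 weeks only; whether the weeks differ is tested below. Without the 3 mice of low Rn45s, an alternative chosen after seeing the data, 36 genes passed and the median was 1.77. Without CKp25 mouse 3, 78 passed.

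**Figure D2:**
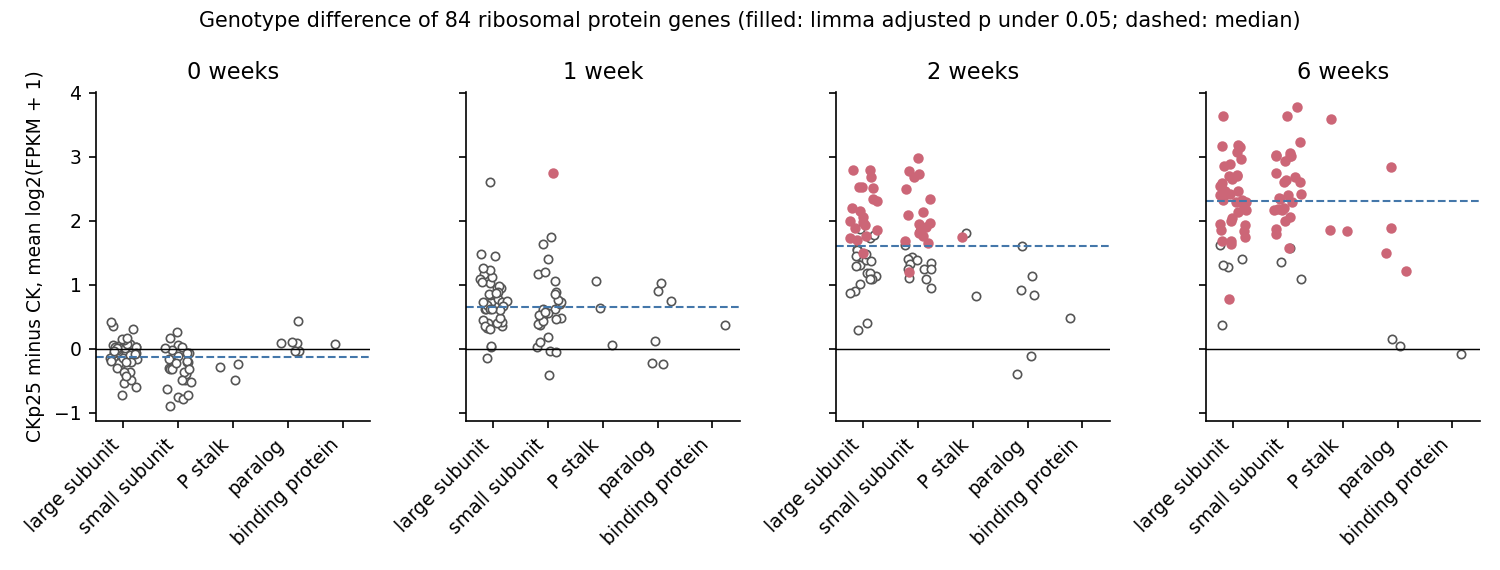
Difference between genotypes (CKp25 minus CK, in mean log2(FPKM + 1) per mouse) of the 84 tested genes at 0, 1, 2 and 6 weeks, by class; each circle is a gene, red where the limma adjusted p was under 0.05, and the dashed line is the median of the 84. The median moved from -0.13 at 0 weeks to 2.31 at 6 weeks, with 73 red circles at 6 weeks.

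Rpl10a, the protein of the mobile L1 stalk of the large subunit, had the smallest p at 6 weeks. Its mean FPKM was 200.1, 204 and 231 in CK mice and 933, 733, 482 and 769 in CKp25 mice. The lowest CKp25 mouse was above the highest CK mouse, with a ratio of means of 3.44 and a difference of 3.18 ± 0.45 (SE, adjusted p = 2.30e-06 in limma). It was found in 72.5% of CK and 96.9% of CKp25 cells, as means of mice.

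Rpl35 was at 159, 283 and 438 in CK mice and 1357, 667, 507 and 711 in CKp25 mice. CK mouse 1 was lowest and CKp25 mouse 1 highest, both of them mice with little Rn45s; the difference was 3.63 ± 0.53 (SE, adjusted p = 3.65e-06 in limma) and 2.45 without the 3 mice of that kind (adjusted p = 0.00335, with a highest value of 0.00932 over all alternatives). Rps21, a small protein of the small subunit, was at 177, 127 and 313 against 884, 707, 402 and 688, without overlap. Its difference was 3.78 ± 0.58 (SE, adjusted p = 1.07e-05 in limma), the largest of the 84 at this time, and its share of cells went from 48.0% in CK to 83.8% in CKp25 mice.

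Rps13, a small subunit protein at the face toward the large subunit, was at 317, 466 and 537 in CK mice and 1784, 927, 639 and 1111 in CKp25 mice (difference 3.03 ± 0.47 SE). Rpl23, a large subunit protein at the face toward the small subunit, was at 139, 241 and 217 against 866, 550.5, 387 and 619 (3.16 ± 0.50 SE). Rpl9, of the large subunit stalk base, was at 367, 338 and 567 against 1481, 1085, 624 and 1033 (3.07 ± 0.51 SE). In all of these CKp25 mouse 1 was the highest and CKp25 mouse 3 the lowest of their group, and neither fell within the CK range.

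**Figure D3:**
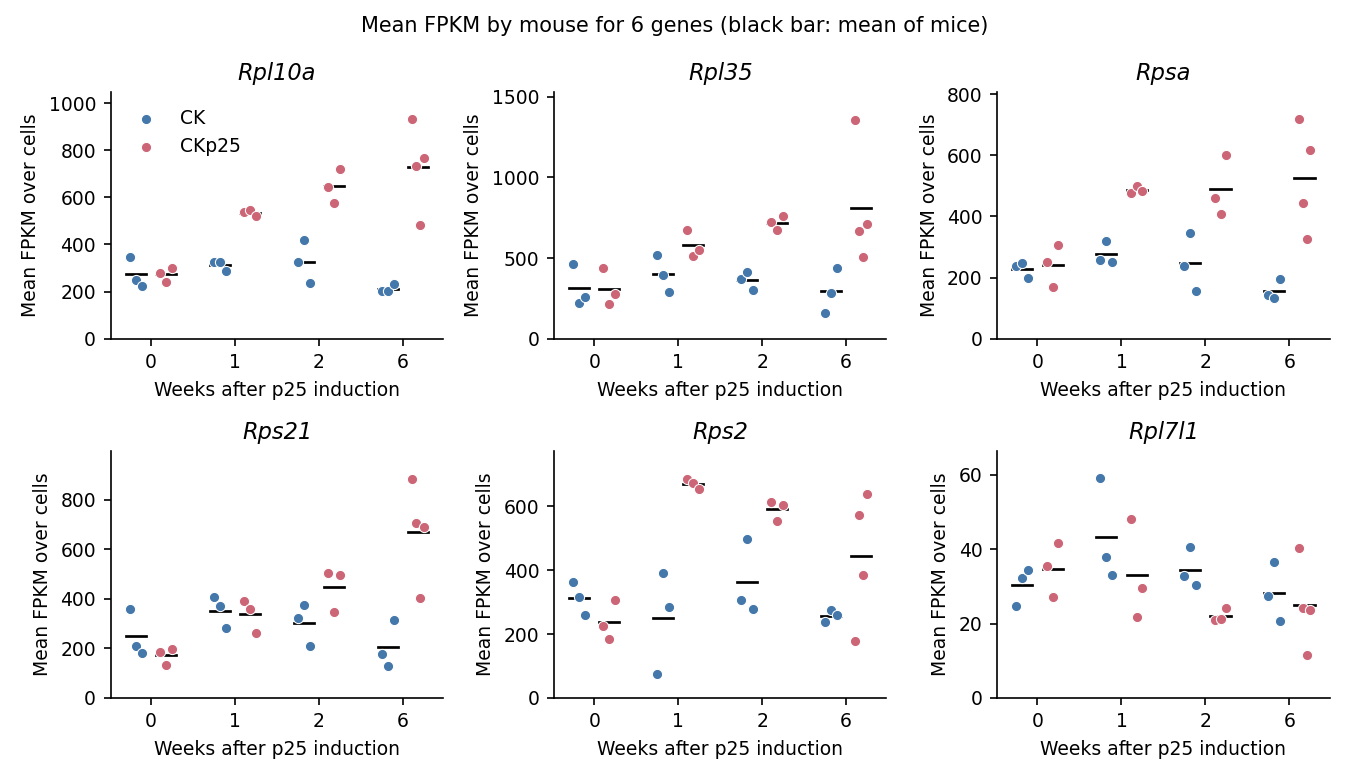
Mean FPKM over the kept cells of each mouse for 6 genes at 0, 1, 2 and 6 weeks (blue CK, red CKp25, black bars means of mice, y axes from 0). Rpl10a, Rpl35, Rpsa and Rps21 are higher in every CKp25 than every CK mouse at 6 weeks, Rps2 has 1 low CKp25 mouse (177) and Rpl7l1 overlaps.

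The stalk proteins had differences at 6 weeks of 1.84 ± 0.45 (SE) for Rplp0, its base, and 1.86 ± 0.48 (SE) and 3.59 ± 0.62 (SE) for Rplp1 and Rplp2, which attach to it. Rplp1 was at 851, 895 and 1215 in CK mice and 3459, 2547, 1609 and 2345 in CKp25 mice. All 3 passed limma, with the highest adjusted p being 0.0118 for Rplp1.

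The 11 genes that did not pass at 6 weeks included core proteins with differences above 1. Among them, Rpl34, Rpl21, Rps27 and Rps25 had differences from 1.31 to 1.57 and adjusted p from 0.0621 to 0.0776 in limma. Rps2 and Rpl13, another large subunit protein, had differences of 1.09 ± 0.74 and 1.63 ± 1.04 (SE). Rps2 was at 236, 275 and 259 in CK mice and 177, 573, 384 and 639 in CKp25 mice, so that CKp25 mouse 1, with little Rn45s, lay below all CK mice while the other 3 lay above. Without the 3 mice of low Rn45s Rps2 and Rpl13 passed limma at 6 weeks, with differences of 1.78 (adjusted p = 0.0320) and 2.43 (adjusted p = 0.00690); these are the lowest adjusted p over all alternatives, and the highest were 0.881 and 0.722. Rpl30 had a difference of 0.37 ± 0.21 (SE). Another 3 were not core ribosomal proteins: Rps4l (0.16 ± 0.22 SE), Rpl7l1 (0.04 ± 0.37 SE) and Rps19bp1 (-0.09 ± 0.27 SE).

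Rps19bp1 was at 1.84, 29.1 and 62.8 in CK and 1.74, 14, 13.1 and 9.03 in CKp25 mice at 6 weeks, and Rpl7l1 at 27.3, 36.4 and 20.6 against 40.3, 24.3, 11.4 and 23.6. In both the groups overlapped. The parent gene Rpl7 was higher by 1.95 ± 0.49 (SE, adjusted p = 0.00749 in limma) at the same time. Of the other paralog pairs, Rpl22l1 and Rpl22 were both higher, by 1.501 ± 0.34 and 1.85 ± 0.45 (SE), as were Rpl36al (1.89 ± 0.51 SE) and Rpl36a (2.71 ± 0.50 SE). Rpl22l1, whose product is known to oppose its parent's in RNA binding, was at 12.5, 14.1 and 34.3 in CK and 63, 56.3, 57.3 and 74 in CKp25 mice, without overlap. Rps27l, a p53 target, was higher by 1.22 ± 0.36 (SE) with overlap, since CKp25 mouse 3 was lowest of all at 12.2. The retrogene Rps27rt passed (2.84 ± 0.52 SE) and Rps27 did not (1.35 ± 0.45 SE, adjusted p = 0.0703 in limma), a split that fragments shared between these near copies could alter.

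Both parts of the mean moved. At 6 weeks the median gene was found in 70.3% of CK and 88.0% of CKp25 cells, and 83 of 84 genes were found in more CKp25 cells. Within the cells that had the gene, 80 of 84 had a higher mean level in CKp25 mice. The median difference was 0.94 in mean log2(FPKM), taken without the added 1. At 2 weeks the median gain was 15.4 percentage points of cells and 0.45 in level, and at 1 week 5.75 percentage points and 0.21. At 0 weeks they were -1.29 percentage points and -0.01. These are descriptions over genes that share libraries and carry no test.

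**Figure D4:**
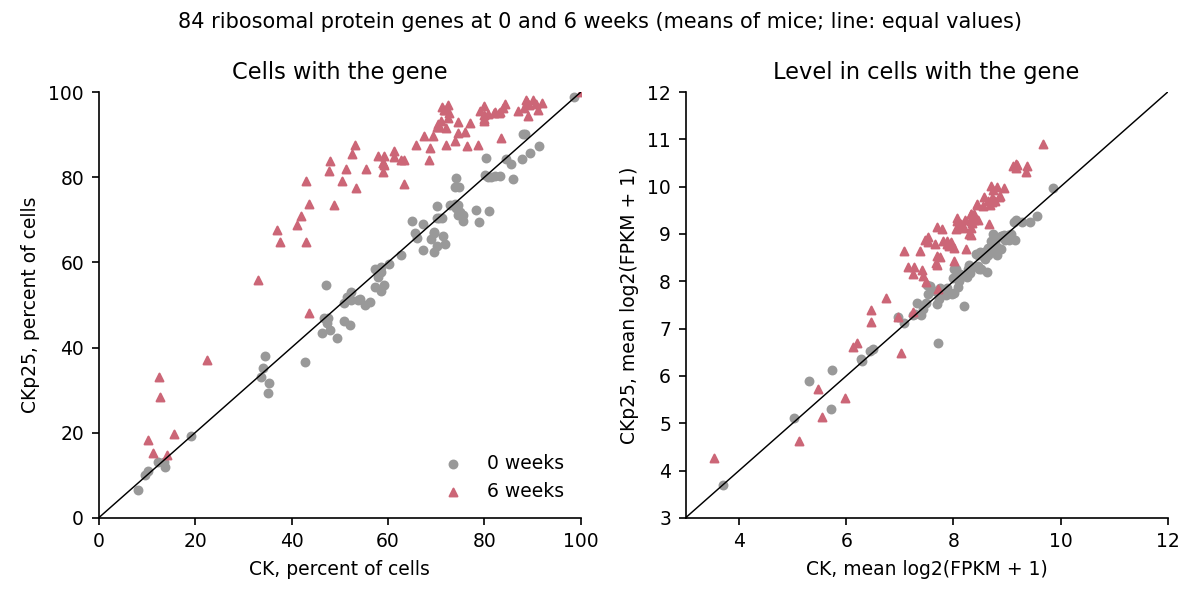
For each of the 84 genes, CKp25 (y axis) against CK (x axis) at 0 weeks (grey circles) and 6 weeks (red triangles), as means of mice. Left, percent of kept cells at FPKM of 1 or more. Right, mean log2(FPKM) in the cells that have the gene. The right axes are labelled log2(FPKM + 1), but no 1 was added to these values. The grey circles scatter about the line of equal values; at 6 weeks 83 of 84 genes lie above it on the left and 80 on the right.

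The change of the genotype difference between weeks was tested in the same limma fit. From 0 to 1 week 0 of 84 genes passed (background 1.13%; 10 at an unadjusted p under 0.05), from 1 to 2 weeks 0 (background 1.71%; 8 unadjusted) and from 2 to 6 weeks 0 (background 0.0424%; 2 unadjusted). The medians of these changes were 0.79, 0.95 and 0.53, and 78, 78 and 76 of 84 genes were above 0. Steps between neighbouring weeks were thus not resolved for single genes. Without the 3 mice of low Rn45s the median change from 2 to 6 weeks was 0.03. The mean of log2(FPKM + 1) over the 84 genes averaged 7.38 at 2 weeks and 7.39 at 6 weeks in CKp25 mice. In CK mice it averaged 5.76 and 5.16 at these times, so the larger difference at 6 weeks went with lower CK values on this scale. From 0 to 2 weeks, a contrast chosen after seeing the data, 6 genes passed as larger (background 2.16%) and 0 as smaller (background 0.466%): Rpsa, Rpl36a, Rpl12, Rps18, Rps20 and Rps12. This count was 1 without CK mouse 3 of week 2, 2 without CK mouse 1 of week 0, CKp25 mouse 2 of week 0 or CKp25 mouse 3 of week 2, and 3 without CK mouse 3 of week 0. It was 4 without CK mouse 1, CKp25 mouse 1 or CKp25 mouse 2 of week 2, and 15 without CK mouse 2 of week 2 or CKp25 mouse 3 of week 6. From 0 to 6 weeks, chosen in the same way, 27 passed as larger (background 1.54%) and 0 as smaller (background 0.265%), with a median change of 2.44 over the 84 genes. The count from 0 to 6 weeks was 8 without CK mouse 1 at 6 weeks, 62 without CKp25 mouse 3 at 6 weeks, 10 without CKp25 mouse 2 at 0 weeks, 13 without CK mouse 1 at 0 weeks, 16 without CKp25 mouse 4 at 6 weeks, and 6 without the 3 mice of low Rn45s.

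The 3 with the smallest p from 0 to 6 weeks were Rps21 (4.49 ± 0.86 SE, adjusted p = 0.00100 in limma), Rps16 (3.79 ± 0.77 SE, adjusted p = 0.00227) and Rpl10a (3.15 ± 0.66 SE, adjusted p = 0.00337). Rps21 was at 357, 208 and 181 in CK and 187, 132 and 198 in CKp25 mice at 0 weeks, where the groups overlapped. From 0 to 2 weeks the smallest p was that of Rpsa (2.92 ± 0.70 SE, adjusted p = 0.0109 in limma), then Rpl36a (3.15 ± 0.76 SE) and Rpl12 (3.13 ± 0.80 SE).

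In control mice no ribosomal protein gene differed from the CK mice at 0 weeks in limma: 0 of 84 at 1 week (background 0%; 11 at an unadjusted p under 0.05), 0 at 2 weeks (background 0%; 13 unadjusted) and 0 at 6 weeks (background 0%; 1 unadjusted). The medians in time order were 0.79, 0.72 and 0.10, against 0.14, 0.15 and 0.00 over all genes. At 1 and 2 weeks 81 and 84 of the 84 genes were above 0, and the median of genes found per cell was also above its value at 0 weeks in these mice (2466 and 2582 against 2109 as group means). These comparisons share the CK mice at 0 weeks, and CK mice of the later weeks also serve the genotype comparisons.

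Genes that act with the ribosome were followed by lists chosen with earlier results of these data known. Fau, which encodes a small subunit protein as a fusion with a ubiquitin-like protein and has no Rpl or Rps symbol, had a difference of 0.37 ± 0.53 (SE, adjusted p = 0.787 in limma) at 1 week. It was higher by 1.72 ± 0.53 (SE) at 2 weeks and by 2.49 ± 0.50 (SE, adjusted p = 0.000568 in limma) at 6 weeks. Gnb2l1, the ribosomal scaffold RACK1, had a difference of 1.53 ± 0.55 (SE, adjusted p = 0.113 in limma) at 1 week and was higher at 2 weeks by 2.18 ± 0.55 (SE) and at 6 weeks by 2.70 ± 0.52 (SE).

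Of 22 other messages known to carry a TOP, 2 were higher at 1 week (background 3.9%) and 12 at each of the later times (backgrounds 6.14% and 4.21%), with 0 lower and medians of 0.83, 1.43 and 1.34. At 6 weeks they included Eef1b2, an exchange factor subunit of elongation (2.56 ± 0.45 SE), Naca, a chaperone at the tunnel exit (2.52 ± 0.47 SE), and Npm1, the nucleolar protein nucleophosmin (2.30 ± 0.49 SE). This list overlaps those of elongation and initiation genes, and Npm1 is also in the list of ribosome biogenesis genes. Within the ribosomal protein genes, 13 of the 14 with a TOP at the annotated start and 43 of the 49 tested genes without one were higher at 6 weeks, and 8 of 14 and 21 of 49 at 2 weeks.

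A list of 11 genes of elongation, which also holds mitochondrial factors and the kinase Eef2k, had 2 genes higher at 1 week (background 3.9%). At 2 weeks 3 were higher (background 6.14%) and 1 lower (background 2.24%). At 6 weeks 3 were higher (background 4.21%) and 1 lower (background 1.54%). Eef1g, a subunit of the exchange complex, was higher at each time, by 1.80 ± 0.49, 2.30 ± 0.49 and 1.99 ± 0.46 (SE). The gene that was lower was Eef2k, which inactivates elongation factor eEF2 and is not itself such a factor, with -1.78 ± 0.38 (SE, adjusted p = 0.00117 in limma) at 2 weeks and -1.24 ± 0.36 (SE, adjusted p = 0.0240) at 6 weeks. Eef1a1, the most used elongation factor, had differences of 0.84 ± 0.47 at 2 weeks and 1.34 ± 0.44 at 6 weeks (SE) that did not pass (adjusted p = 0.325 and 0.0630 in limma). Eef2 passed at 2 weeks (1.45 ± 0.48 SE, adjusted p = 0.0492) and not at 6 weeks (adjusted p = 0.0807). Of 38 initiation factors 2 were higher at 1 week (background 3.9%, so near it), 7 at 2 weeks (background 6.14%) and 4 at 6 weeks (background 4.21%), with 0 lower. The 4 at 6 weeks were Eif3k, Eif3h and Eif3e of the eIF3 scaffold and Eif4b, a helper of the cap-bound helicase.

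Genes of the mitochondrial ribosome and of ribosome assembly had medians nearer to that of all genes. The shares of all 9435 genes called higher, 3.9%, 6.14% and 4.21% in time order, are the background for each list. Of 77 mitochondrial ribosomal protein genes 4 were higher at 1 week, 1 at 2 weeks (Mrpl12) and 1 at 6 weeks (Mrpl52), at or below about that background, with medians of 0.29, 0.20 and 0.12, and their share of summed FPKM at 6 weeks was 0.351% ± 0.017 (SD, n = 3) in CK and 0.300% ± 0.022 (SD, n = 4) in CKp25 mice. Of 75 ribosome biogenesis genes 4 were higher at 1 week, namely Nop56 and Nop58 of the box C/D particles, Nhp2 and Grwd1; 2 were higher at 2 weeks, Npm1 and Utp3, and 1 at 6 weeks, Npm1. These counts too lay near or below the background. Nop56 was higher by 1.57 ± 0.36 (SE, adjusted p = 0.00400 in limma) at 1 week. Among 23 genes of translation control, Myc, a transcription factor of growth, was higher at 1 week (1.25 ± 0.28 SE, adjusted p = 0.00358 in limma), with differences of -0.11 and 0.09 thereafter, and Pdcd4, an inhibitor of eIF4A, was lower (-0.57 ± 0.17 SE) at 1 week. Eif4ebp1, a repressor of cap binding, was higher at 2 weeks (1.40 ± 0.29 SE). In this list 1 gene was higher at 1 week and 1 at 2 weeks, near or below the backgrounds of 3.9% and 6.14%. At 1 week 1 gene was lower (background 0.392%), and 0 passed at 6 weeks. Mtor and Larp1 passed at no time, with differences of 0.10 ± 0.18 and 0.38 ± 0.17 (SE) at 6 weeks. At 0 weeks 0 genes of these lists passed. Whether the lists differ from each other in their course was not tested.

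**Figure D5:**
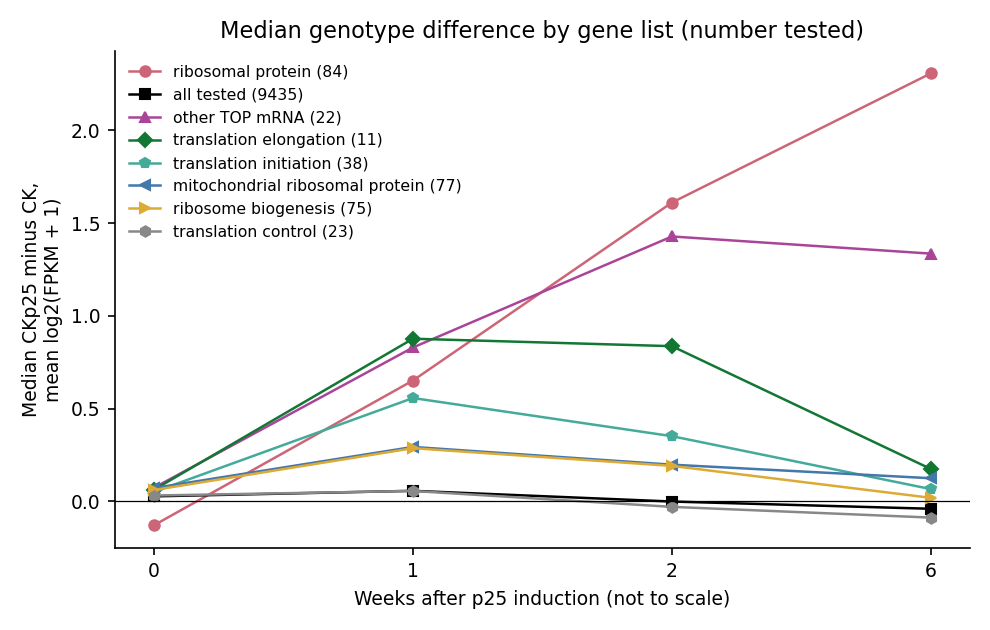
Median difference between genotypes (CKp25 minus CK, mean log2(FPKM + 1)) over the tested genes of each list at 0, 1, 2 and 6 weeks, with the number tested in the legend; the weeks are equally spaced on the x axis and no error is drawn because genes are not replicates. Ribosomal protein genes and other TOP messages end at 2.31 and 1.34, and ribosome biogenesis genes at 0.02.

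Across the 25 mice most members moved with the family mean. Rps19 was the closest to it (Pearson's r = 0.989), 66 of 84 genes had r above 0.9, and the least alike were Rpl13 (0.480), Rps4l (0.445), Rps19bp1 (0.367) and Rpl7l1 (0.112). The mean contains each member, and the mice share depth and group, so these values are descriptions. Outside the family the 10 genes most like its mean over the 25 mice included Fau (r = 0.966), Eef1b2 (0.960), Naca (0.954), Gm12191 (0.950), Pfdn5 (0.949), Atp5g2 (0.942), Hspe1 (0.942), Gpi1 (0.930) and Npc2 (0.924). Npc2, a lysosomal cholesterol carrier, averaged 106 in CK and 349 in CKp25 mice at 6 weeks.

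Markers of microglia and of other cells were summed in the same mice. The summed FPKM of 13 microglial markers ran from 18667 to 21780.3 in CK and from 10941 to 21944 in CKp25 mice at 6 weeks, and 0, 1, 5 and 3 of them were lower in CKp25 mice at 0, 1, 2 and 6 weeks in limma, with 0 higher; the shares of all genes called lower were 0.392%, 2.24% and 1.54% at the last 3 of these times. The sum over 6 monocyte markers ran from 0.308 to 21.0 in CK and from 25.2 to 30.1 in CKp25 mice at 2 weeks, and from 0.781 to 27.4 and 6.57 to 54.9 at 6 weeks. The sum over 6 markers of border-associated macrophages ran from 1.98 to 74.0 in CK and from 45.4 to 190.3 in CKp25 mice at 6 weeks. Of these 12, 4 reached the filter for testing and 1 passed in any genotype comparison, Plac8 at 2 weeks. Of the T or NK cell markers, Cd3e, Nkg7 and Gzma reached an FPKM of 1 in 0 of the kept cells, Cd3g in 0.0986% and Cd3d in 5.67%, with up to 15.4% in a single mouse for Cd3d. The part of these cells in the result was not tested.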

How the data were processed

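Single-cell RNA-seq of sorted hippocampal microglia (modified Smart-seq2) was taken from 1 table of FPKM deposited by the authors, with Cufflinks 2.2 and the build mm9 named in the submitters' processing notes; TopHat appears in the title given to the authors' table, and the sources used here give no version of it, no annotation and no treatment of shared fragments. The table had 0 columns that matched no sample. Wells with under 1000 genes at FPKM of 1 or more were left out (180). A mouse's profile was the mean over its kept cells of log2(FPKM + 1), which understates changes of low genes. Genes that reached an FPKM of 1 in 10% of the cells or more, in 3 mice or more, were tested (9435). limma 3.58.1 (R 4.3.3; trend and robust options) was fitted to 25 mice in 8 groups (17 residual degrees of freedom, 2-sided, Benjamini-Hochberg over 9435 genes) and tested on simulated data. Python 3.11.15, numpy 2.4.6 and pandas 2.3.3 did the rest. Doublets were not called, and no counting interval was computed, because FPKM hold no counts.

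The members, gene lists, tests and rules were chosen with earlier results of these data known. Any member could be named; values by mouse are given for up to 6 genes per direction past the threshold at 1, 2 and 6 weeks (or the 2 with the smallest p), up to 3 for other comparisons, up to 4 for the other lists, paralogs with their partners and the 5 highest and lowest in level. Rplp1 at 6 weeks, Rps2 at 6 weeks and Rpl13 were given by mouse after their values were seen. The alternatives that moved a count are given with their effect at the end; replicate numbers were not treated as pairing the genotypes, since nothing in the labels says that they mark a litter or a day. Some genes that the rule would name are not reported here.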

Additional observations from a re-analysis of the deposited data

Results flagged for a closer look

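The mean of log2(FPKM + 1) over the 84 tested ribosomal protein genes was 7.81, 7.71, 6.25 and 7.80 in the 4 CKp25 mice at 6 weeks, and mouse 3 stood apart from the other 3 at 6.25 by Dixon's criterion for 4 values. The same mouse stood apart in the small RNA share of summed FPKM, at 7.19% against 2.96%, 3.27% and 2.56%. Rpl39l was listed at 0 in 3 of these mice and at 1.09 in mouse 4. The criterion was applied to 98 quantities in this group, of which 3 stood apart, and chance marks about 1 in 20.

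The genotype difference itself differed between weeks by a test of the difference, in contrasts chosen after seeing the data. From 0 to 2 weeks 6 ribosomal protein genes passed limma, led by Rpsa (2.92), Rpl36a (3.15) and Rpl12 (3.13). From 0 to 6 weeks 27 passed, led by Rps21 (4.49), Rps16 (3.79) and Rpl10a (3.15).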

How the results depend on the processing

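No ribosomal protein gene passed as lower in any comparison under any alternative run. At 6 weeks the count of 73 higher genes ran from 57 to 78 under the alternatives chosen earlier and was 36 without the 3 mice of low Rn45s; leaving out each mouse gave 49 to 78. At 2 weeks the count of 38 fell to 2 with log2 of mean FPKM and 16 with no filter on low values, where more genes are tested; leaving out each mouse gave 9 to 54. At 1 week the count of 1 was 0 with no filter, without cells with Top2a or Mki67, within that week's mice alone and without the 3 mice of low Rn45s, 4 with FPKM rescaled without Rn45s and small RNA or with median genes per cell as a covariate, 6 with quantile normalization and 8 with cells of at least 2000 genes; leaving out each mouse gave 0 to 3 (3 without CK mouse 2 of week 1 or of week 2). The change from 0 to 1 week gave 1 gene with cells of at least 2000 genes and with the covariate, and 0 to 1 when leaving out each mouse. The change from 0 to 2 weeks (6 genes) gave 0 with log2 of mean FPKM, 1 with no filter, 12 with rescaled FPKM, 14 with quantile normalization, 23 within the weeks compared and 11 without the 3 mice, and 1 to 15 when leaving out each mouse. The change from 0 to 6 weeks (27 genes) gave 3 with log2 of mean FPKM, 6 with no filter, 50 with the covariate and 6 without the 3 mice, and 8 to 62 when leaving out each mouse. Except where a setting tests other genes or fewer mice, the cause was not tested. Differences that did not pass changed sign when 1 mouse was left out, with ranges of -0.61 to 0.12 for Rpl7l1 at 1 week, -0.20 to 0.038 for Rps4l at 2 weeks and -0.42 to 0.13 for Rps19bp1 at 6 weeks. Of the settings not yet named, log2(FPKM + 0.1), without first wells and without the 7 wells of repeated name gave 1 gene each at 1 week, 42, 36 and 38 at 2 weeks, and 71, 75 and 73 at 6 weeks. Rescaling moved the median of all genes at 1 week from 0.06 to 0.12, and log2 of mean FPKM moved it to -0.17, and to -0.35 at 2 weeks and -0.18 at 6 weeks.

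Same-numbered mice of a week had correlations of their deviations from -0.12 to 0.35. They were over 0.1 for every pair only at 0 weeks, and below 0 only for mouse 3 at 6 weeks. The Rn45s share was lowest in mouse 1 of both genotypes at 1 and 6 weeks and in mouse 2 of both at 2 weeks. At 0 weeks it was lowest in CK mouse 1 and in CKp25 mouse 3. The labels do not say whether the numbers mark a shared preparation, and this was not tested. The main fit left the mice unpaired. With the replicate block 1 gene passed at 1 week, 43 at 2 weeks, 66 at 6 weeks, 1 for the change from 0 to 1 week, 10 from 0 to 2 weeks and 18 from 0 to 6 weeks. In this fit CKp25 mouse 4 at 6 weeks, which has no CK mouse of its number, adds nothing to the 6-week differences. Those of Rps2 (0.69) and Rpl13 (1.02) were the same as without that mouse. With no read counts, a value of 0 says only that the gene is listed at 0.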
